A study of Oryza sativa with 8 samples.

Results

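The genes described here were counted in the leaf of wild-type rice and were close to absent from the leaf of a transgenic rice line. They were chosen by their own read counts. A locus was kept when it reached 0.5 CPM (reads of a locus per 1000000 reads counted in its library) in each of 4 WT libraries and stayed under 0.1 CPM in each of 4 mEmBP-OE-4 libraries. Of 35667 rows with an Os locus ID in the table of 36850 rows, 17798 were on in WT by the first threshold and 72 met both. The 24 of these that lie in 5 stretches of consecutive IDs (1 on chromosome 4, 1 on chromosome 7, 2 on chromosome 11 and 1 on chromosome 12), where large changes crowd together, were set aside. That left 48 loci. The difference between the groups in these loci is therefore the rule itself, is given as a description and is not tested.

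RNA was sequenced from the second leaf from the top of field-grown rice (Oryza sativa) at heading, cut at about 10 in the morning, with 4 libraries of WT (wild type) and 4 of mEmBP-OE-4. The latter is a single line that overexpresses mEmBP-1a, a maize transcription factor of the bZIP class. The sources used here do not give the cultivar of the WT plants, the promoter of the transgene or whether the replicates are separate plants. Libraries held 35627524 to 50800180 counts, so 0.5 CPM was 18 to 24 counts or more in a WT library and the loci could hold at most 3 to 5 counts in a library of the line.

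Factors of the EmBP type bind the G-box, a short DNA element in many plant promoters, and EmBP-1 itself was first described in wheat as a factor on promoters that respond to abscisic acid. A bZIP factor of this kind can sit on many promoters at once, and overexpression studies compare leaf transcripts with those of the parent plant to see which rose and which fell. The loci below are among the large falls and were chosen by absolute level, not by the size of the fall. Nothing in the files pairs a locus ID with a name, and the gene table at hand matched 1 row ID and none of the 48. The loci are therefore called by their IDs, no role is given to any of them, and the leaf label was not checked against named marker genes. For the same reason the transcript of the maize transgene was not checked. The first pair of digits of an ID is the chromosome.

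In WT the RNA of the 48 loci was present at low levels. Their mean WT level ran from 0.699 to 9.59 CPM with a median of 1.90 CPM, and 36 of them averaged 1 CPM or more, 23 averaged 2 CPM or more and 10 averaged 5 CPM or more. Together they took 145 ± 9.36 CPM in WT and 0.961 ± 0.412 CPM in the line (SD, n = 4). In reads, that was 23741 over the WT libraries and 171 over the libraries of the line. In bulk leaf RNA, fewer cells that transcribe a locus and less RNA per cell cannot be told apart.

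The locus with the highest WT level was Os11g0618700, on chromosome 11. It stood at 8.02, 10.6, 9.18 and 10.6 CPM in WT replicates 1 to 4 and at 0.0261, 0, 0.0438 and 0.0984 CPM in mEmBP-OE-4 replicates 1 to 4. All 4 WT libraries were high and near each other, and replicate 4 of the line was the library that came closest to the threshold. The pooled level was 209-fold higher in WT, with a 95% counting interval of 106 to 484 that covers the error of the line's 8 reads only.

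Os11g0605300, also on chromosome 11, stood at 8.82, 8.18, 7.44 and 10.2 CPM in WT and at 0.0261, 0, 0 and 0.0197 CPM in mEmBP-OE-4. It had the largest fold of the loci with any read in the line, 761-fold with a counting interval of 211 to 6287, on 2 reads in the line and a WT mean of 8.66 CPM. The width of that interval shows how little the size of such a fold is fixed.

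Os10g0163190, on chromosome 10, was the steadiest of the 48 in WT, with 7.75, 8.82, 8.90 and 8.82 CPM and a coefficient of variation of 6.44%. In mEmBP-OE-4 it stood at 0.0261, 0, 0 and 0.0394 CPM. Os12g0632401, on chromosome 12, stood at 7.51, 10.46, 7.16 and 8.44 CPM in WT and at 0.0522, 0.0741, 0 and 0.0394 CPM in the line. Both had every WT library above 7 CPM, and neither reached 0.1 CPM in any library of the line.

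Os07g0187001, on chromosome 7, averaged 7.54 ± 0.844 CPM in WT and 0.0368 ± 0.0332 CPM in the line (SD, n = 4). Os06g0637800, on chromosome 6, averaged 7.42 ± 1.71 CPM in WT and 0.0551 ± 0.0373 CPM in the line, where every library held at least 1 read. It was 1 of 5 loci among the 48 with a read in all 4 libraries of the line, in its case 1, 3, 1 and 5 reads.

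The next 6 loci by WT level lay between 4 and 7 CPM. Os04g0112100 averaged 6.25 ± 1.13 CPM in WT, Os02g0616800 averaged 6.17 ± 0.433 CPM and Os06g0205250 averaged 5.83 ± 2.25 CPM (SD, n = 4). Os01g0880100 averaged 5.59 ± 0.980 CPM, Os01g0748800 averaged 4.55 ± 0.296 CPM and Os12g0630750 averaged 4.48 ± 0.449 CPM. Their means in mEmBP-OE-4 ran from 0.00984 CPM in Os02g0616800, with 2 reads in replicate 4 and none elsewhere, to 0.0481 CPM in Os06g0205250. Of these 6, Os06g0205250 was the least even in WT, at 9.15 CPM in replicate 1 and 4.26 to 5.29 CPM in the others.

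**Figure D1:**
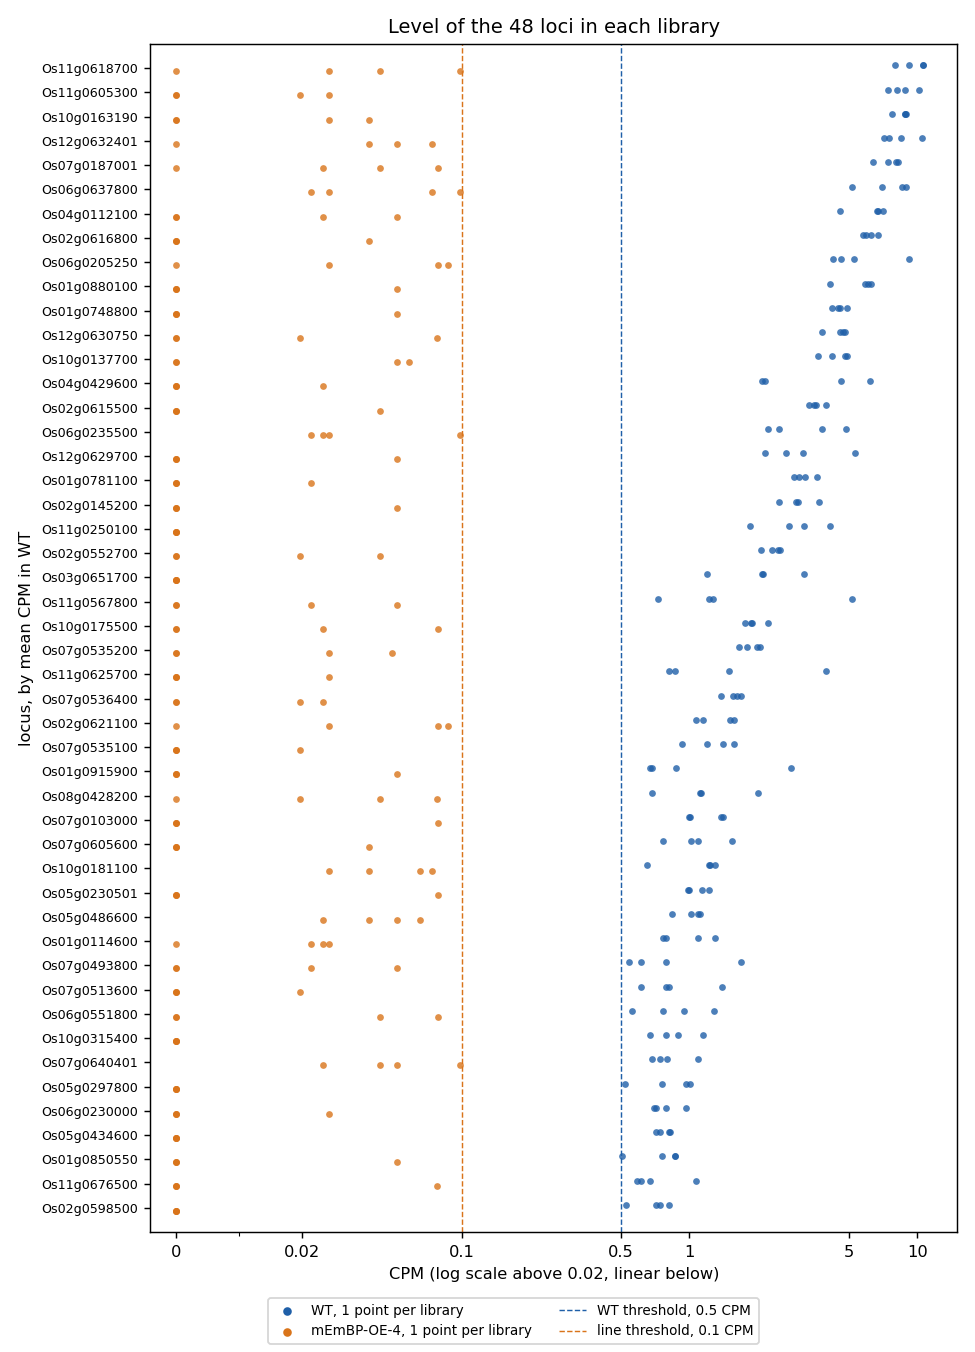
Level of each of the 48 loci in every library, in CPM on an axis that is logarithmic above 0.02 and linear below, with loci ordered by their mean in WT (blue, 4 WT libraries; orange, 4 mEmBP-OE-4 libraries; dashed lines, the thresholds of 0.5 and 0.1 CPM that chose the loci). The gap between the dashed lines is empty by the rule, WT means span 0.699 to 9.59 CPM, and most orange points lie at 0.

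A complete absence of reads was the exception. Of the 192 values of the 48 loci in mEmBP-OE-4, 109 (56.8%) were 0 counts, but 6 loci alone had none in all 4 libraries. A count of 0 allows up to 0.0591 to 0.0783 CPM in a library of the line (3 reads), and the folds given here are lower bounds against 3 reads over the group. Os11g0250100, on chromosome 11, was the highest of the 6, at 1.85, 2.73, 4.13 and 3.18 CPM in WT, at least 169-fold higher than in the line. Os03g0651700, on chromosome 3, was the only one of the 48 on that chromosome and stood at 3.17, 1.19, 2.08 and 2.11 CPM in WT, at least 128-fold higher.

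The other 4 loci without a read were weak in WT too. Os10g0315400 averaged 0.874 ± 0.202 CPM, Os05g0297800 averaged 0.813 ± 0.224 CPM, Os05g0434600 averaged 0.772 ± 0.0528 CPM and Os02g0598500 averaged 0.699 ± 0.124 CPM in WT (SD, n = 4). Their bounds were 40.2 to 50.5-fold, so for these the depth of the line limits what can be said about the size of the difference.

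The 42 loci with any read in the line ranged from 14.4 to 761-fold higher in WT, with a median of 136-fold. The smallest was Os07g0640401, on chromosome 7, whose level in the line was 6.94% of that in WT. Over all 48 loci the level in the line was a median of 0.636% of the WT level. Of the 48, 6 had 1 read over the 4 libraries of the line, 11 had 2, 8 had 3 and 17 had 4 or more, with 10 as the highest.

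The remaining reads were not spread evenly over the line's libraries. Replicates 1 to 4 held 47, 20, 34 and 70 reads in the 48 loci, or 1.23, 0.494, 0.745 and 1.38 CPM, and 28, 13, 17 and 25 of the loci had a read. The rule allowed at most 3, 4, 4 and 5 reads in replicates 1 to 4. Values of 5 reads could therefore occur in replicate 4 alone, the deepest library, which held 4 of them. Those loci came within a read of failing the rule, as did loci at the limit of another library. Relative to depth, replicates 1 and 4 stood above replicates 2 and 3.

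**Figure D2:**
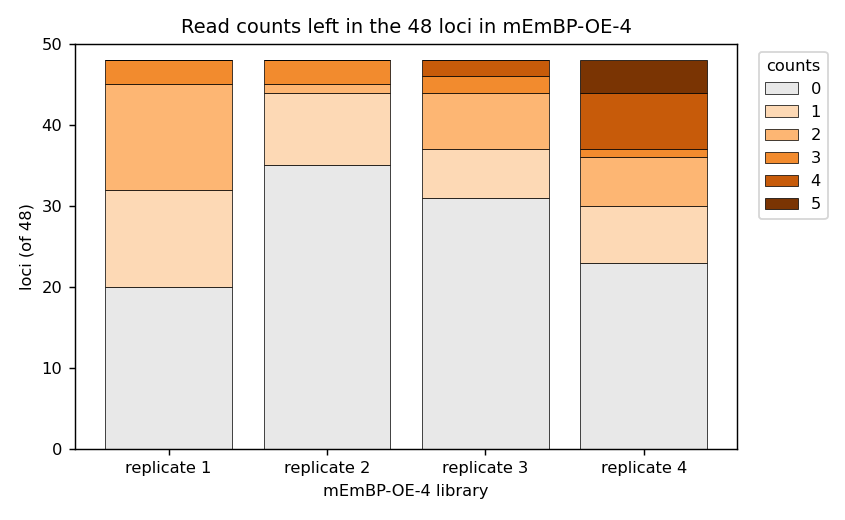
Number of the 48 loci (vertical axis) with 0, 1, 2, 3, 4 or 5 reads in each mEmBP-OE-4 library (horizontal axis), shaded by the number of reads. Loci without a read number 20, 35, 31 and 23 in replicates 1 to 4, and 5 reads occur only in replicate 4, the only library where the rule allows 5.

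The thresholds cut through a continuous range. Just inside the WT threshold lay Os01g0850550, at 0.508 CPM in its lowest WT library, and Os05g0297800, at 0.521 CPM. Just outside lay Os01g0923800 and Os04g0116200, each at 0.471 CPM in WT replicate 2. Os04g0116200 held 1.41, 1.71 and 1.65 CPM in the other WT libraries and at most 0.0494 CPM in the line, so it missed the rule through that library alone.

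At the line threshold the neighbours inside were Os06g0235500 and Os06g0637800, with 5 reads or 0.0984 CPM in replicate 4 of the line. Os06g0235500 stood at 2.20, 4.88, 2.47 and 3.81 CPM in WT. Just outside were Os07g0220333, with 0.104 CPM in replicate 1 and no read in the others, and Os01g0155000, with up to 0.110 CPM. Outside the set-aside stretches, 21 loci on in WT stayed under 0.05 CPM in every library of the line, 48 under 0.1, 79 under 0.2, 372 under 0.5 and 1137 under 1 CPM.

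One library weighed most on the choice. With mEmBP-OE-4 replicate 1 left out, the rule chose 75 loci, the 48 among them. The other 27 stood at 0.104 to 1.07 CPM in replicate 1, with a median of 0.235 CPM, while their mean over the other 3 libraries of the line had a median of 0.0294 CPM. Leaving out any other library gave 48 to 59 loci. Scaling also mattered, because the scaling factors of edgeR's TMM method were 1.11 to 1.28 in WT and 0.741 to 1.01 in the line. On TMM-scaled library sizes 31 of the 48 met both thresholds and no other locus did.

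Across all genes, the quasi-likelihood test of edgeR, with p-values adjusted by the Benjamini-Hochberg method, called 3954 of 20690 tested rows lower in mEmBP-OE-4 (19.1%) and 4155 higher (20.1%). All 48 loci passed the filter on low counts and were called lower, and nothing is read from that count because the rule used the same libraries. The p-values measure only how these libraries differ among themselves, and part of that spread may be technical. In CPM, which is not scaled by TMM, all 4 WT libraries lay above all 4 libraries of the line in 40.7% of tested rows. In the 48 loci this holds by construction. With library totals alone in place of TMM, the edgeR test called 43.1% of tested rows lower, so the scaling bears on this share. Rows called lower by over 8-fold numbered 271 (1.31% of those tested), of which 48 were these loci, 57 lay in the set-aside stretches and 166 were neither. The most negative fitted changes did not belong to these loci alone, since 18 of the 50 lowest were among the 48.

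The loci were weak in WT by the measure of the leaf, although the rule sets a floor in WT and no ceiling. None of the 48 averaged 10 CPM or more in WT, where 9572 of the 17798 loci on in WT (53.8%) did, and the median over those 17798 was 11.7 CPM against 1.90 CPM. By level, and outside the set-aside stretches, the 48 made up 2.03% of the 590 loci at 0.5 to 1 CPM, 0.764% of the 1701 loci at 1 to 2 CPM, 0.432% of the 3006 loci at 2 to 5 CPM and 0.350% of the 2860 loci at 5 to 10 CPM. Of the 9514 loci at 10 CPM or more none was chosen. The line's threshold is an absolute level, however, so the fold difference that a locus needed in order to enter grew with its WT level, and the low levels follow in part from the rule.

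Measured relative to WT, near-silence reached into the abundant loci as well. The mean level in the line was under 1% of the WT mean in 6, 4, 12 and 11 loci of those 4 bands and in 14 loci at 10 CPM or more. These 14 were singled out after their values were seen. They missed the rule because at least 1 library of the line reached 0.1 CPM, with highest values from 0.158 CPM in Os01g0309451 to 3.94 CPM in Os01g0780900.

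**Figure D3:**
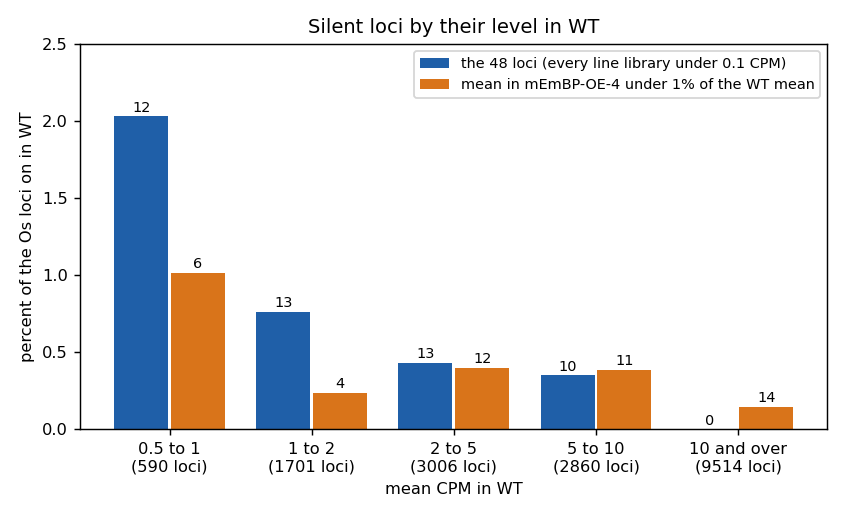
Share of the Os loci on in WT (vertical axis, percent) that were among the 48 (blue) or whose mean in mEmBP-OE-4 was under 1% of the WT mean (orange), by mean CPM in WT (horizontal axis), outside the set-aside stretches; numbers above the bars are loci. The blue share declines from 2.03% in the lowest band to 0 of 9514 loci in the highest, where 14 loci were still under 1% of WT.

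The WT libraries were somewhat less even in these loci than in the typical locus on in WT, again as a description. Their coefficient of variation over the 4 WT libraries had a median of 19.0% and a range of 6.44% to 98.4%, against a median of 15.1% over all loci on in WT, most of which were more abundant. In 22 of the 48 (45.8%) the WT libraries lay within 1.5-fold of each other, against 59.8% of the loci on in WT. Weaker loci carry more counting error, and its part in this difference was not tested.

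A few loci were uneven in WT, with replicate 1 far above the rest. Os11g0567800, on chromosome 11, stood at 5.16, 1.21, 0.730 and 1.27 CPM in WT replicates 1 to 4. Os11g0625700, also on chromosome 11, stood at 3.99, 1.49, 0.814 and 0.864 CPM. With Os01g0915900 and Os07g0493800 these were the 4 of the 48 whose highest WT library exceeded the next by over 2-fold (8.33%), and replicate 1 was the high one in all 4. Of the 17798 loci on in WT, 755 had such a gap (4.24%), and replicate 1 was the high library in 751 of them.

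The loci were scattered over 11 of the 12 chromosomes. By ID, chromosome 7 held 9, chromosomes 1, 2 and 11 held 6 each, chromosomes 6 and 10 held 5 each, chromosome 5 held 4, chromosome 12 held 3, chromosome 4 held 2, and chromosomes 3 and 8 held 1 each. Chromosome 9 held none. Of the loci on in WT this was 0.659% on chromosome 7, 0.619% on chromosome 11 and 0.559% on chromosome 10, against 0.0421% on chromosome 3 and 0.0826% on chromosome 8. Chromosome 3 had 2374 loci on in WT and 1 of the 48, and chromosome 9 had 962 and none. Chromosomes 4, 7, 11 and 12 had already given up 24 loci with their set-aside stretches. These were 9 on chromosome 4, 2 on chromosome 7, 3 and 4 in the stretches of chromosome 11, and 6 on chromosome 12. The shares above leave these loci out, so the order of the chromosomes depends on setting the stretches aside.

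IDs that do not end in 00 made up 8 of the 48 (16.7%), 6.48% of all loci on in WT and 17.9% of all Os rows. Weak loci carried such IDs more often, with 14.7% of those at 0.5 to 1 CPM and 7.41% of those at 5 to 10 CPM. Among the chosen loci, 2 of 12 at 0.5 to 1 CPM and 1 of 13 at 1 to 2 CPM had such an ID. At 2 to 5 CPM it was 1 of 13, and at 5 to 10 CPM 4 of 10. The shares of all loci in those bands, outside the set-aside stretches, were 14.7%, 12.1%, 10.5% and 7.41%.

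Closeness of the 48 to each other was counted in rows. Order here is that of the locus IDs and not of coordinates, which were not used. The longest run of neighbouring rows was 2, Os07g0535100 and Os07g0535200. Among rows on in WT alone the number of loci next to another of the 48 was likewise 2. The 5 set-aside stretches held 24 of the 72 loci that met both thresholds. Loci that crowd together were thereby left out, so short runs follow in part from the choice. Within 10 rows, 8 of the 48 had another of them near, in 3 places. Of the 9514 loci at 10 CPM or more in WT, outside the set-aside stretches, 2.21% lay within 10 rows of one of the 48. The difference was not tested.

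On chromosome 7, Os07g0535100 averaged 1.27 ± 0.279 CPM in WT, Os07g0535200 averaged 1.86 ± 0.175 CPM and Os07g0536400 averaged 1.55 ± 0.130 CPM, and in mEmBP-OE-4 they averaged 0.00492, 0.0189 and 0.0111 CPM (n = 4). Between them, Os07g0535800 stood at 2.53 ± 2.09 CPM in WT and 2.44 ± 1.65 CPM in the line and was not called (adjusted p = 0.618 in edgeR). Nor was Os07g0535700, at 0.771 ± 0.339 and 0.649 ± 0.310 CPM (adjusted p = 0.658 in edgeR). The near-silent loci there were thus interleaved with loci read in both groups. These 3 were also the only ones of the 48 within 50 rows of a set-aside stretch.

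On chromosome 12, Os12g0629700, Os12g0630750 and Os12g0632401 spanned 15 rows. Of the 8 tested rows between them, 2 were called lower, 2 higher and 4 were not called. One of the higher pair, Os12g0630700, owes its direction to the scaling, since its mean CPM before TMM was 53.9 ± 3.98 in WT and 52.3 ± 3.65 in the line (SD, n = 4). Os12g0632000 averaged 734 ± 124 CPM in WT and 655 ± 43.3 CPM in the line (SD, n = 4, adjusted p = 0.0883 in edgeR), so an abundant transcript read in both groups lay between near-silent ones. On chromosome 2, Os02g0615500 and Os02g0616800 flanked 6 rows, of which 5 were too weak to test.

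The sixth, Os02g0615800, fell from among the more abundant transcripts of the leaf. It stood at 628.5, 874, 660.3 and 781 CPM in WT replicates 1 to 4 and at 2.25, 0.0494, 0.110 and 0.413 CPM in mEmBP-OE-4 replicates 1 to 4. The mean in the line was 0.0957% of that in WT, and the log2 fold change was -9.69 (SE 0.83, adjusted p = 5.43e-05 in edgeR). Its neighbour Os02g0615500, one of the 48, stood at 3.97, 3.35, 3.54 and 3.61 CPM in WT. Whether reads of the abundant locus were counted in its neighbours was not tested.

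Calls of lower level made up a larger share of the rows beside the 48 than of all tested rows, which is given as a description. Of the 93 nearest tested rows on either side, 32 (34.4%, exact binomial 95% interval 24.9% to 45.0%) were called lower against 19.1% of all tested rows, and 14 (15.1%, interval 8.48% to 24.0%) were called higher against 20.1%. The interval takes rows as independent, which neighbours are not, and no test was made. With 3 rows on each side 28.6% of 269 were called lower, and with 5 rows on each side 26.7% of 438. The share was highest in the nearest rows, with intervals that overlap (22.6% to 31.1% for 5 rows on each side). Scaling decides much of the background. With library totals alone in place of TMM, the median log2 fold change of all tested rows moved to -0.47, 43.1% of them were called lower and 8.47% higher, and the shares in the 93 rows became 49.5% and 8.60%.

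**Figure D4:**
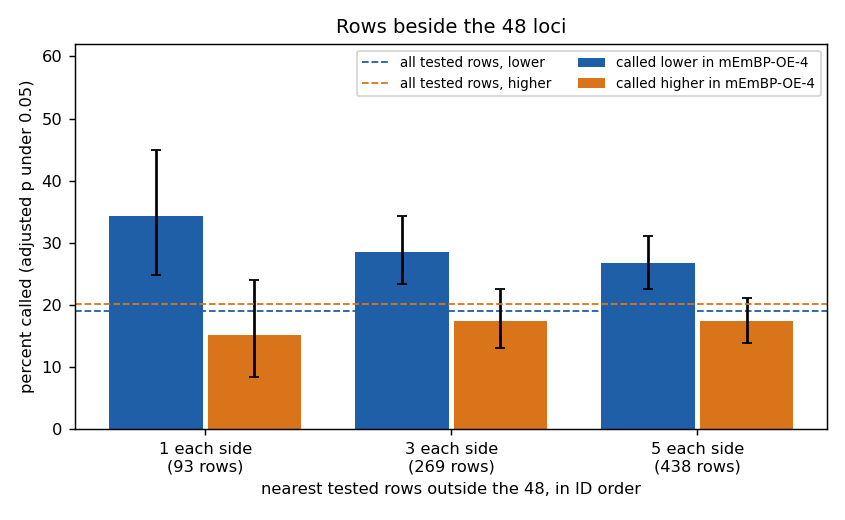
Percent of the nearest tested rows beside the 48 loci (vertical axis) called lower (blue) or higher (orange) in mEmBP-OE-4 at an adjusted p under 0.05, for 1, 3 and 5 rows on each side (horizontal axis); error bars are exact binomial 95% intervals and dashed lines the share of all tested rows. The blue bars decline from 34.4% to 26.7% and lie above the blue line at 19.1%, and the orange bars lie below the orange line at 20.1%.

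Very large differences of both directions were found there. Of the 93 nearest rows 8 (8.60%) were called lower by over 8-fold, against 1.31% of all tested rows, and 3 (3.23%) were called higher by over 8-fold, against 1.71%. Beside the opposite set described last, the counts were 4 lower (4.30%) and 5 higher (5.38%) of 93, so shares above those of all tested rows were not limited to the surroundings of the 48. Os10g0138100, beside Os10g0137700 on chromosome 10, stood at 123, 157, 106.5 and 106.0 CPM in WT and at 0.261, 0, 0.110 and 0.0591 CPM in mEmBP-OE-4, a log2 fold change of -9.72 (SE 0.41, adjusted p = 1.52e-06 in edgeR). Os10g0180800, beside Os10g0181100 on the same chromosome, averaged 76.1 ± 11.2 CPM in WT and 1.90 ± 1.53 CPM in the line. Both were far more abundant in WT than any of the 48.

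Os11g0605100, beside Os11g0605300, averaged 17.0 ± 2.67 CPM in WT and 0.144 ± 0.206 CPM in the line, and Os02g0614966, beside Os02g0615500, averaged 11.7 ± 2.19 and 0.237 ± 0.272 CPM (SD, n = 4). Os05g0297900, beside Os05g0297800, averaged 5.76 ± 1.28 and 0.126 ± 0.219 CPM. Os01g0916100, beside Os01g0915900, averaged 4.73 ± 4.10 and 0.204 ± 0.0775 CPM, and shared with it the high WT replicate 1, at 10.9 CPM against 2.21 to 3.03 CPM. The last of the 8, Os07g0187000, held 0.337 to 0.508 CPM in WT and no read in the line, and its ID directly precedes Os07g0187001. The strand setting of the counting is not given, so reads of loci that overlap cannot be told apart.

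Of the 14 abundant loci under 1% of WT, 5 lay within 5 rows of one of the 48 (35.7%) and 6 within 10 rows (42.9%), where 1.05% and 2.21% of all 9514 loci at 10 CPM or more did. Besides those already named they were Os01g0780900, Os11g0626700 and Os11g0606400. Os01g0780900, 2 rows from Os01g0781100, averaged 154 ± 15.2 CPM in WT and 1.28 ± 1.77 CPM in the line (SD, n = 4). Os11g0626700, 2 rows from Os11g0625700, averaged 39.6 ± 5.04 and 0.0522 ± 0.104 CPM. Os11g0606400, 8 rows from Os11g0605300, averaged 34.0 ± 0.745 and 0.222 ± 0.137 CPM. In these loci the WT libraries lay close together and far above every library of the line.

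**Figure D5:**
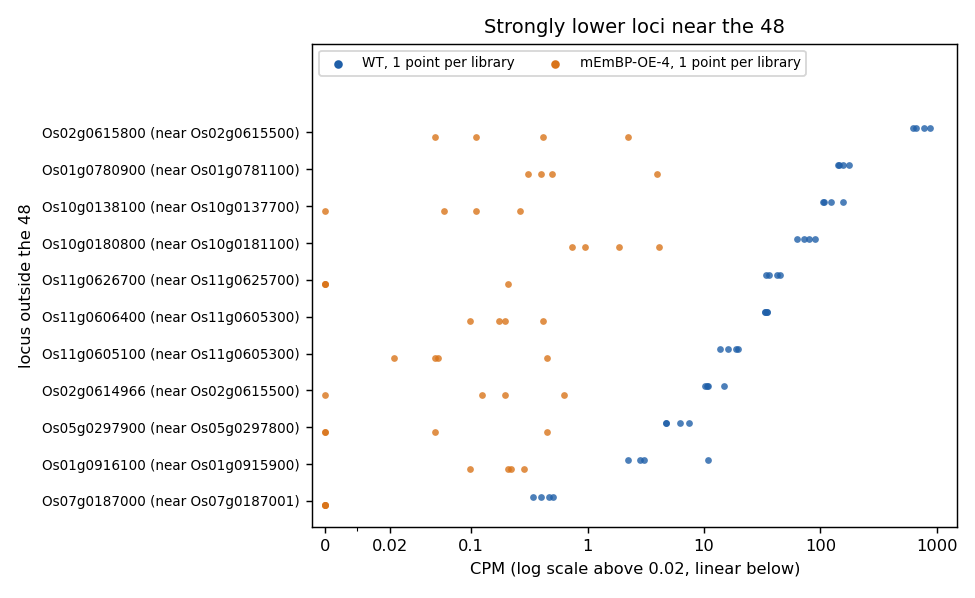
Level in every library, in CPM on an axis that is logarithmic above 0.02 and linear below, of 11 loci outside the 48 that lie within 8 rows of one of them and were lower by over 8-fold or, at 10 CPM or more in WT, under 1% of WT (blue, WT; orange, mEmBP-OE-4). No WT point overlaps a point of the line, and WT means span 0.429 CPM in Os07g0187000 to 736 CPM in Os02g0615800.

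The opposite set, silent in WT and on in mEmBP-OE-4 by the same thresholds and with the same stretches set aside, also had 48 loci. Its median mean level in the line was 1.70 CPM with a range of 0.675 to 15.01 CPM, against 0.699 to 9.59 CPM in WT for the loci described here. Of the 93 rows beside it 22 (23.7%) were called lower and 25 (26.9%) higher. None of the 48 was next to a row of the opposite set, and 2 were within 10 rows of one. The same share over all loci was not counted, so nothing is read from these counts. Os11g0676500, at 0.734 ± 0.224 CPM in WT and 0.0196 ± 0.0392 CPM in the line, lay 3 rows from Os11g0677000, which averaged 0.0400 CPM in WT and 3.42 CPM in the line. The difference between the neighbourhoods of the sets was not tested.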

How the data were processed

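Total RNA of 4 WT and 4 mEmBP-OE-4 leaf samples was sequenced, and the authors deposited 1 table of raw counts per locus, with no normalization. The submitters' processing notes name the aligner STAR 2.5.3a, the build IRGSP-1.0, Trim Galore, FastQC and DESeq2. How reads were assigned to loci, and with which strand setting and annotation, is not given in the sources used here. Rows were grouped by the sample titles. Totals were 35627524 to 50800180 counts per library.

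From the deposited counts, CPM was the count over the column total. The 48 loci met the thresholds of 0.5 CPM in each WT library and under 0.1 CPM in each mEmBP-OE-4 library, outside 5 stretches of IDs. The members, the stretches and the lists were chosen with earlier results of these data known. Loci named are the 12 of highest WT mean, 2 on each side of each threshold, those without a read in the line and the longest run of neighbours. Other IDs were named after their values were seen. Rows were ordered by locus ID.

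All genes were tested on the counts with edgeR 4.0.16 (quasi-likelihood test, TMM, filterByExpr with a minimum count of 10 and a minimum total of 15, 2 groups of 4) in R 4.3.3, with Benjamini-Hochberg adjustment at 0.05. The alternatives used DESeq2 1.42.0, limma 3.58.1, other scalings and filters, other thresholds, a replicate block and the removal of each library. The tests were checked on simulated data. Counting intervals are exact, 95%, and cover counting error only. Deviations of same-numbered WT and mEmBP-OE-4 libraries from their group means correlated at 0.641, 0.347, 0.189 and 0.104 over genes, all over 0.1. WT replicates 1, 3 and 4 correlated best with the same number in the line, but WT replicate 2 with replicate 4 of the line. Pairing by number therefore stayed uncertain. The main fit left the libraries unpaired, and only the replicate block among the alternatives treated same-numbered libraries as pairs. Product classes and cell type markers could not be assessed without gene names. No member sequence was at hand.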

Additional observations from a re-analysis of the deposited data

Results flagged for a closer look

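Of 50 groups of 4 libraries examined, 5 held a library far from the other 3 by Dixon's criterion at 95%, where chance gives about 5%. The groups were the WT values of each of the 48 loci and the summed CPM of the loci in WT and in the line. Single loci were not examined in the line, so it was nearly fixed in advance that all 5 were in WT. Replicate 1 was concerned in 4 of the 5. In Os01g0915900 WT replicate 1 stood at 2.79 CPM and the others at 0.669 to 0.870 CPM. In Os11g0567800 it stood at 5.16 CPM and the others at 0.730 to 1.27 CPM. Both loci met the WT threshold in all 4 libraries, so replicate 1 alone does not place them among the 48.

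Replicate 1 was the low library in the other pair of loci. Os10g0163190 stood at 7.75 CPM there and at 8.82 to 8.90 CPM in the others, and Os10g0181100 at 0.651 CPM there and at 1.21 to 1.30 CPM in the others. In Os04g0112100 WT replicate 3 was low, at 4.58 CPM against 6.67 to 7.04 CPM.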

How the results depend on the processing

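Of 100 recomputed values, 87 stayed within the bounds set for them and 13 moved. The bounds were wide, since 4986 genes called lower against 3954 counted as unmoved. Some of the 87 were fixed by the rule, such as the number of the 48 called lower and the counts in held-out libraries. The tally is therefore no measure of robustness. The number of loci was 31 on TMM-scaled library sizes, 26 with a WT threshold of 1 CPM, 77 with 0.25 CPM, 21 with a line threshold of 0.05 CPM, 79 with 0.2 CPM and 6 with no read allowed. It was 48 to 75 with 1 library left out, and 76 with both first replicates left out, a setting added after the data were seen. Wider lists held all 48 loci and narrower lists were subsets of them, which the rule fixes for changed thresholds and for libraries left out. The 48 were called lower in every fit run, against 19.1% of all tested rows in the main fit. Nothing is read from that, because the rule used the same libraries. With library totals alone, 8912 genes were called lower and 1752 higher, and 49.5% of the rows beside the loci were called lower. The summed share of counts in WT moved from 0.0145% to 0.0123% on TMM-scaled sizes and to 0.0102% without the 5 loci of highest level.

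With the replicate number as a block, 4986 genes were called lower and 5214 higher. Of the rows beside the 48 loci 38.7% were called lower, against 24.1% of all tested rows. Without both first replicates these shares were 37.0% and 20.5%. With 1 library left out, genes called lower ranged from 3134 to 4298, genes called higher from 3265 to 4255, and rows called lower beside the loci from 26 to 36 of 93. Depth limits the folds, since the line held 0 to 10 reads per locus, and a single read decides whether some loci meet the threshold.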

Other observations

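Of the 14 loci at 10 CPM or more in WT and under 1% of that in mEmBP-OE-4, 8 lay over 100 rows from any of the 48 or on a chromosome without one. They were chosen after their values were seen. Os09g0496250, on chromosome 9, which held none of the 48, averaged 91.9 ± 12.8 CPM in WT and 0.649 ± 0.830 CPM in the line (SD, n = 4). Os11g0206000 averaged 79.0 ± 10.2 and 0.294 ± 0.264 CPM, and Os03g0324200 averaged 66.9 ± 12.4 and 0.134 ± 0.0664 CPM. Os03g0324200 stayed at 0.0657 to 0.217 CPM in the line and at 54.3 to 84.0 CPM in WT, so its groups lay far apart although chromosome 3 held 1 of the 48.

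Os06g0271500 averaged 36.7 ± 4.99 CPM in WT and 0.155 ± 0.199 CPM in the line, and Os02g0211000 averaged 35.6 ± 4.64 and 0.207 ± 0.161 CPM (SD, n = 4). The 3 least abundant were Os01g0309451, at 16.8 CPM in WT, Os07g0159200, at 16.1 CPM, and Os03g0431550, at 15.7 CPM. Os03g0431550 had no read in replicates 2 and 3 of the line.

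Beside the 48, 3 rows were called higher by over 8-fold. Os01g0850700, next to Os01g0850550, averaged 1.77 CPM in WT and 11.3 CPM in the line. Os07g0534700, next to Os07g0535100, averaged 0.880 and 5.46 CPM. The remaining one is Os11g0677000, of the opposite set, which lay 3 rows from Os11g0676500. Together these 3 were 3.23% of the 93 nearest tested rows, against 1.71% of all tested rows. Os01g0850700 and Os07g0534700 thus lay directly next to near-silent loci.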
